A study of Mus musculus with 3 samples.

Results

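Transcripts of 8 genes that move or store iron, copper and zinc were followed through the cell types of the mouse kidney cortex. The animals were given sham surgery or severe ischemia-reperfusion injury (IRI) of both kidneys. Kidneys with IRI were examined 24 h later, and the time after sham surgery is not given in the sources used here. The genes were given by name as a list of metal-handling genes, and all 8 were among the 22535 genes counted. They are Tfrc and Slc11a2 (iron entry), Fth1 and Ftl1 (storage), Slc40a1 and Cp (export), and Mt1 and Mt2 (metallothioneins). Each was measured as unique molecular identifiers (UMIs, 1 per captured transcript molecule) per cell barcode on the BD Rhapsody platform.

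Cells came from the kidney cortex of WT1CreERT2; Rosa26-tdT fl/+ mice treated with tamoxifen, in which the Wt1 locus drives an inducible Cre and cells that expressed Wt1, with their descendants, carry the red reporter tdT. Each library pooled cells of several kidneys. The Sham library was a mixture of sorted tdT+ and tdT- cells in the proportion 2:1, and IRI24h-TDN was the same mixture after IRI. IRI24h-TD held tdT+ cells alone after IRI. There was 1 library for each condition, so no difference here has a replicate check and no test between conditions was possible. The 95% intervals given with values (exact Poisson for levels, exact conditional binomial for ratios, Clopper-Pearson for shares of cells) cover counting error alone.

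After removal of barcodes with fewer than 200 detected genes or more than 50% mitochondrial UMIs, 8047 Sham, 9024 IRI24h-TDN and 9689 IRI24h-TD cells remained, with a median of 7746 to 9529 UMIs per cell. Between 82 and 96 barcodes were shared by each pair of libraries, about 1% of either one. Clusters were named from marker genes that do not include any of the 8 genes, which gave 12 classes with at least 30 cells in both mixtures. Podocyte-like cells, the Wt1-expressing cells of the glomerular filter, made up 54.4% and 57.8% of cells in the Sham and injured mixtures and 90.5% of the tdT+ library, so only 5 classes could be followed into the tdT+ library. These were podocyte-like, parietal epithelial cell-like (PEC-like, 447, 128 and 171 cells in Sham, IRI24h-TDN and IRI24h-TD), mixed PEC/PTEC, proximal tubular epithelial cell-like (PTEC-like, 1013, 154 and 87 cells) and fibroblast-like. The fibroblast-like class (136, 42 and 51 cells) also held 7 to 9 of 12 parietal markers in at least 25% of its cells. With libraries pooled, 3 fibroblast markers reached that share, the minimum needed for a name, beside 8 parietal and 10 podocyte markers. The class is called by its fibroblast genes only with these limits. Cluster 19, PTEC-like, was 97.4% Sham cells, and cluster 16, podocyte-like, was 96.6% Sham cells. Levels are given as CPM, the UMIs of a gene relative to all UMIs of the same class and library, summed over cells. The summed level of podocyte markers in fibroblast-like cells was 6009, 2185 and 10760 CPM in Sham, IRI24h-TDN and IRI24h-TD. PEC-like cells held 3708, 2084 and 8261 CPM of them in the same order. A value was called past 2-fold when the ratio exceeded 2 either way and its interval excluded no difference, among gene-class pairs with at least 20 UMIs.

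Iron reaches most cells bound to transferrin, which is taken up by the transferrin receptor, and is released into the cytosol by the divalent metal transporter. The iron not used at once is stored in ferritin, a shell of heavy and light chains, and leaves the cell through ferroportin, aided by a copper-carrying ferroxidase that oxidises it for loading onto transferrin. Metallothioneins are small cysteine-rich proteins that bind zinc and copper, and their genes are switched on by metals, glucocorticoids and oxidative stress. In the kidney the proximal tubule reclaims filtered metals and proteins, and it is the segment most injured by ischemia.

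A part of this system is controlled after transcription by iron regulatory proteins, which bind a hairpin called the iron-responsive element (IRE) in the untranslated regions (UTRs) of some of these mRNAs. In a 5′ UTR the bound protein blocks translation, and in the 3′ UTR of Tfrc it protects the mRNA from decay, so UMI counts report the second effect and not the first. The sites are shown because their place, in the 5′ or the 3′ UTR, tells which of these effects such a site could have. The search pattern of 17 bases was an unpaired C, 5 paired bases, the loop CAGTGN and 5 paired bases, with G-U pairs allowed, and it was read from the GENCODE M21 transcripts on the GRCm38 build. Capitals mark the loop.
Fth1, 5′ UTR, chr19:9982738-9982754, plus strand: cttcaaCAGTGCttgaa
Ftl1, 5′ UTR, chr7:45459785-45459801, minus strand: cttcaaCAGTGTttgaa
Slc40a1, 5′ UTR, chr1:45925471-45925487, minus strand: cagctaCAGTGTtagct
Tfrc, 3′ UTR, chr16:32631225-32631241, plus strand: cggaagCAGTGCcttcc
Tfrc, 3′ UTR, chr16:32631604-32631620, plus strand: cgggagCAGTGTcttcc
Tfrc, 3′ UTR, chr16:32631669-32631685, plus strand: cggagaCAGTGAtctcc
Tfrc, 3′ UTR, chr16:32631716-32631732, plus strand: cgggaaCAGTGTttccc
The pattern lay in a UTR of 160 of 21877 protein-coding genes (0.731%) and of 4 of the 8 genes here. Fth1, Ftl1 and Slc40a1 had 1 site each in the 5′ UTR, and Tfrc had 4 in the 3′ UTR. For Slc11a2, Cp, Mt1 and Mt2 these letters were not found, which says nothing of an element of another form.

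The metallothionein promoters are shown because the 2 genes lie side by side and moved furthest of the 8. Mt2 (chr8:94172664-94173568, plus strand) and Mt1 (chr8:94179082-94180327, plus strand) are neighbours on chromosome 8. Capitals mark the core of the metal response element (MRE), TGCACNC or TGCGCNC, on either strand. The stretch runs from 250 bases before to 27 bases after the RefSeq start on GRCm38.p6, both on the plus strand. For Mt2 it ends at 94172644, before the gene start of 94172664 given above from GENCODE, so the count of cores depends on the start used.
Mt1, chr8:94178839-94179115: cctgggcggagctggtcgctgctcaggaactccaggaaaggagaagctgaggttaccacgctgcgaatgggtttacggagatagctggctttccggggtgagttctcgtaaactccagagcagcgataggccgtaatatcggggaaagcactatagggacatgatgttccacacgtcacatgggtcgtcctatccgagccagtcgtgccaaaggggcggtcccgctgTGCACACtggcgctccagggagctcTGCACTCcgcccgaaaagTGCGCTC
Mt2, chr8:94172368-94172644: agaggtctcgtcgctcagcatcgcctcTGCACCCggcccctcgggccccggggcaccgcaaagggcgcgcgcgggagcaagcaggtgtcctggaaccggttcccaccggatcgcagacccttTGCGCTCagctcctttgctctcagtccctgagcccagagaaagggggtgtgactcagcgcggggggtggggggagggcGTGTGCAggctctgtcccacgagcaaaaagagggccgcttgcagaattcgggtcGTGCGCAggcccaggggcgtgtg
The windows searched, with 50 bases after the start, held 3 cores for Mt1 and 4 for Mt2. At least 1 core was found in 28.2% of the 27025 gene symbols with a promoter in the same table, at least 3 in 2.27% and at least 4 in 0.588%. The windows of Cp, Fth1 and Ftl1 held none, and that of Tfrc held 2 overlapping cores in 1 of its 2 windows. A match is a description of letters and does not show that a factor was bound.

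Of 92 gene-class pairs with enough UMIs, 36 were past 2-fold between IRI24h-TDN and Sham, 32 higher and 4 lower. This is 39.1% of the pairs, against a background of 17.6% over all genes (8.39% higher and 9.18% lower). The 8 genes were chosen with earlier results of these data known. A share above the background is therefore no test of them, here or in the comparisons below. By class the background ran from 10.4% in mesangial and smooth muscle-like to 30.9% in PTEC-like cells, with 28.7% in fibroblast-like cells. None of the 8 genes was past 2-fold in the same direction in every class in which it could be read, with at least 6 such classes, while 1.26% of 10361 genes were (0.434% higher and 0.83% lower). Metallothioneins made up 20 of the 32 higher pairs. The median gene shifted by -0.17 (fibroblast-like) to 0.27 (monocytic-like) on the log2 scale, and by 0.14 in PTEC-like cells, so ratios near 1 in these classes are read against that shift.

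**Figure D1:**
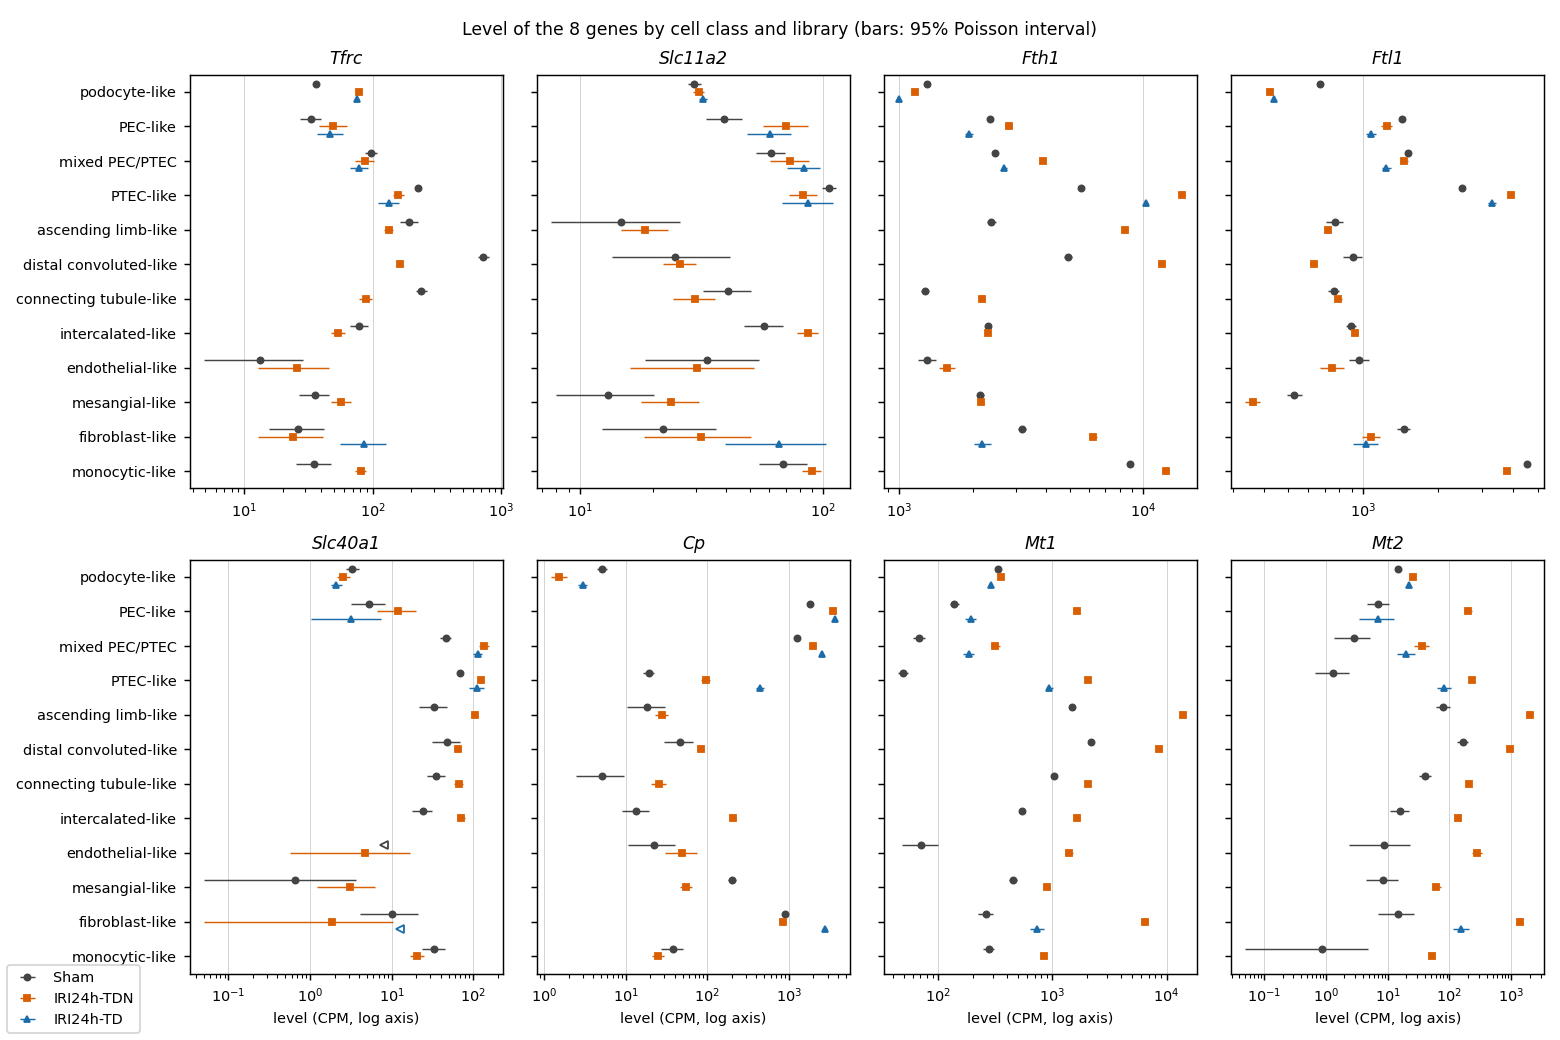
Level of each gene in CPM (log axis) by cell class for Sham (grey circles), IRI24h-TDN (orange squares) and, where a class had at least 30 cells, IRI24h-TD (blue triangles). Bars are 95% Poisson intervals and open triangles mark the upper limit where no UMI was found. The points of Mt1 and Mt2 separate most widely between Sham and IRI24h-TDN, while Cp is high in the PEC-like, mixed and fibroblast-like rows of every library.

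The panels share a class order, so a gene confined to few rows can be told from one found along the whole nephron. Fth1 and Ftl1 were read in all classes, whereas Cp and Slc40a1 spanned several orders of magnitude between classes.

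Tfrc encodes the transferrin receptor (chr16:32608920-32632794, plus strand). In Sham its level was 723 CPM in distal convoluted tubule-like cells, 240 in connecting tubule and principal-like, 226 in PTEC-like and 192 in ascending limb-like cells. It was 36.2 CPM in podocyte-like, 33.0 in PEC-like and 35.2 in monocytic-like cells. The highest Sham levels of Tfrc were therefore all in tubular classes, though the distal convoluted value rests on 46 cells.

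After IRI this order narrowed. Tfrc was 162 CPM in IRI24h-TDN in distal convoluted tubule-like cells, so it was lower by 2.15 on the log2 scale (interval of the ratio -2.32 to -1.99). In connecting tubule and principal-like cells it was 88.0 CPM, a log2 ratio of -1.45 (-1.66 to -1.23). The share of these cells with a Tfrc UMI was 56.5% in Sham and 32.5% in IRI24h-TDN, at medians of 7908 and 9583 UMIs per cell. Values of -0.51 in PTEC-like, -0.52 in ascending limb-like and -0.54 in intercalated-like cells had the same sign and did not reach 2-fold.

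In podocyte-like cells Tfrc was higher after IRI, at 77.7 CPM in the injured mixture and 75.9 CPM in the tdT+ library against 36.2 in Sham. The log2 ratio was 1.10 (1.01 to 1.19) in IRI24h-TDN and 1.07 (0.98 to 1.15) in IRI24h-TD, which both rest on the same Sham library. In monocytic-like cells it was 80.8 against 35.2 CPM, a log2 ratio of 1.20 (0.74 to 1.70), and 28.5% of cells held a UMI against 10.4%. Tfrc thus moved in opposite directions in distal tubule and in podocyte-like and monocytic-like cells, with a median over 11 classes of -0.16. That the ratios differ between classes was not tested, because each class has 1 library a condition.

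Slc11a2 encodes the divalent metal transporter (chr15:100387898-100425072, minus strand), which carries iron and other divalent metals. Its highest level was in PTEC-like cells in Sham, at 105 CPM, with 82.7 in IRI24h-TDN and 86.9 in IRI24h-TD. PEC-like cells held 39.2, 70.3 and 60.2 CPM, and podocyte-like cells 29.5, 30.8 and 32.0 CPM in the same order. No class passed 2-fold between IRI24h-TDN and Sham, and the log2 ratios ran from -0.45 to 0.86. The interval in podocyte-like cells, -0.05 to 0.17, is narrow, whereas that in ascending limb-like cells, -0.55 to 1.34, leaves room for a 2-fold difference.

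The storage genes differed from each other. Fth1 (chr19:9980598-9985098, plus strand), the ferritin heavy chain that oxidises incoming iron, was past 2-fold higher in 3 of 12 classes. Ftl1 (chr7:45457944-45459884, minus strand), the light chain that helps the iron core to form, was past 2-fold in none.

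Fth1 in ascending limb-like cells was 8449 CPM in IRI24h-TDN and 2386 in Sham, a log2 ratio of 1.82 (1.76 to 1.89). In PTEC-like cells it was 14414 against 5580 CPM, a log2 ratio of 1.37 (1.35 to 1.39), and in IRI24h-TD it was 10279 CPM. In distal convoluted tubule-like cells it was 11952 against 4914 CPM, a log2 ratio of 1.28 (1.23 to 1.34). All 3 classes with this difference were tubular, but intercalated-like cells had a log2 ratio of 0.00 (-0.05 to 0.05), so the difference was not shared by every tubular class. In the mixed PEC/PTEC class the log2 ratio of 0.66 (0.61 to 0.70) was short of 2-fold, but passed it in 5 of 10 other settings, up to 1.56, and that of fibroblast-like cells, 0.97, passed it in 1 of 9.

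Single cells moved with the sums. The median PTEC-like cell held 4828 CPM of Fth1 in Sham and 13024 in IRI24h-TDN, and the interquartile range of cells ran from 3609 to 6388 CPM in Sham and from 9137 to 17490 in IRI24h-TDN. These ranges did not overlap. In IRI24h-TD the median PTEC-like cell held 6010 CPM, and the interquartile range, from 2291 to 13046 CPM, spanned both of the others. That class had 87 cells in IRI24h-TD with a median of 2431 UMIs, against 14840 in IRI24h-TDN, and the part of this depth in the wider spread was not tested.

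Podocyte-like cells had among the lowest Fth1 levels, 1300 CPM in Sham, with 1158 and 997 in IRI24h-TDN and IRI24h-TD. Monocytic-like cells started from the highest Sham level, 8857 CPM, and held 12402 CPM in IRI24h-TDN. Within the monocytic-like class the clusters differed, since cluster 5 held 8425 and 13947 CPM in Sham and IRI24h-TDN and cluster 21 held 13070 and 8012 CPM, the latter with 36 Sham cells.

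Ftl1 was 2494 CPM in Sham and 3922 in IRI24h-TDN in PTEC-like cells, a log2 ratio of 0.65 (0.62 to 0.69). It was 672 CPM in Sham, with 424 and 438 in IRI24h-TDN and IRI24h-TD in podocyte-like cells, a log2 ratio of -0.66 (-0.69 to -0.64) for IRI24h-TDN. Over the 12 classes the median was -0.24 and 3 ratios were above 0. Heavy and light chain transcripts hence did not change together in the ascending limb-like class, where Fth1 was 1.82 and Ftl1 -0.10 (-0.22 to 0.03).

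The Ftl1 values are uncertain because a near-identical copy was counted as its own gene. Ftl1-ps1 (chr13:74399694-74407346), named as a pseudogene but typed as protein coding in GENCODE M21, was past 2-fold higher in 12 of 12 classes in IRI24h-TDN, with a median log2 ratio of 2.15 (range 1.47 to 3.23). Its share of the summed Ftl1 and Ftl1-ps1 UMIs was 1.72% to 3.56% over the Sham classes. The injured mixture had 11.8% to 16.1% and the tdT+ library 12.6% to 14.2%. The ranges of Sham and of both injured libraries did not overlap, and the share was nearly the same in all classes of a library. How reads matching both copies were assigned is not given in the sources used here, and whether the difference lies in the cells or in the counting was not tested. With both copies summed the median log2 ratio of Ftl1 was -0.08.

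**Figure D2:**
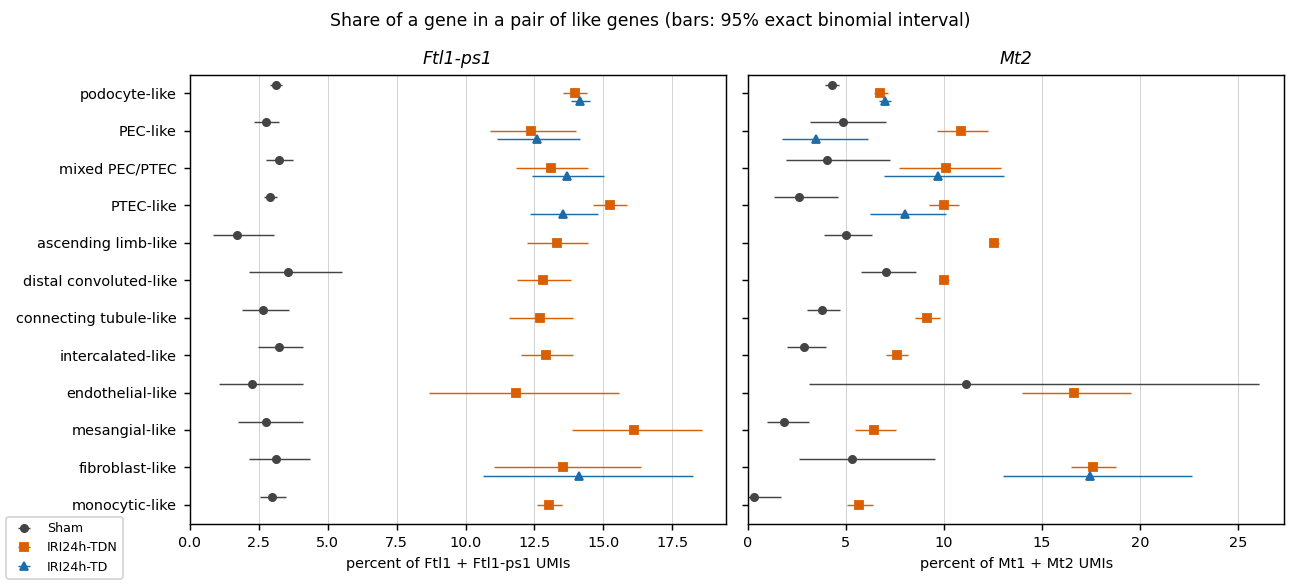
Left, percent of summed Ftl1 and Ftl1-ps1 UMIs counted as Ftl1-ps1; right, percent of summed Mt1 and Mt2 UMIs counted as Mt2, by class and library with exact binomial intervals. The left panel shows every Sham class at or under 3.56% and every IRI24h-TDN class at or above 11.8%, while the right panel shows shares that differ between classes within a library.

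In the left panel the share was higher in every class of IRI24h-TDN than in any class of Sham, and the right panel belongs to the metallothioneins described further on. The Mt2 share overlapped between libraries, with class values from 0.309% to 11.1% in Sham and from 5.69% to 17.6% in IRI24h-TDN.

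Slc40a1 encodes ferroportin (chr1:45908068-45926523, minus strand), the known iron exporter of mammalian cells. Its level was 69.2 CPM in Sham, with 124 and 112 in IRI24h-TDN and IRI24h-TD in PTEC-like cells, and 46.2, 136 and 114 CPM in the mixed PEC/PTEC class. In ascending limb-like cells it was 33.2 CPM in Sham and 104 in IRI24h-TDN, and in intercalated-like cells 24.0 and 70.9 CPM. In podocyte-like cells it was 3.32, 2.57 and 2.11 CPM in Sham, IRI24h-TDN and IRI24h-TD. Slc40a1 was therefore found in tubular and mixed classes at levels far above those of podocyte-like cells.

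The log2 ratio of Slc40a1 was 1.65 (1.09 to 2.27) in ascending limb-like, 1.56 (1.13 to 2.02) in intercalated-like and 1.55 (1.25 to 1.86) in mixed PEC/PTEC cells. In PTEC-like cells it was 0.85 (0.65 to 1.04), and without cluster 19, of mostly Sham cells, it was 1.11, which passed 2-fold. The share of mixed PEC/PTEC cells with a Slc40a1 UMI was 27.1% in Sham, with 63.4% and 63.3% in IRI24h-TDN and IRI24h-TD, at medians of 9343, 13054 and 13109 UMIs. For comparison, 0.368% of mesangial and smooth muscle-like cells in Sham and 0.698% in IRI24h-TDN held one. In PEC-like cells the ratio of 1.16 (0.08 to 2.21) came from 19 and 15 UMIs, and the call was kept in 4 of 10 other settings with values from -0.58 to 2.67, so it is reported as unstable.

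Monocytic-like cells, whose macrophages are known for recycling iron, held 33.4 CPM of Slc40a1 in Sham and 20.6 in IRI24h-TDN, a log2 ratio of -0.70 (-1.24 to -0.13), short of 2-fold. In endothelial-like cells there was no UMI in Sham and 2 in IRI24h-TDN, too few for a ratio.

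Cp encodes ceruloplasmin (chr3:19957054-20009145, plus strand), the copper-carrying ferroxidase that works with ferroportin. Across classes Cp was most abundant in PEC-like cells, with 1833 CPM in Sham, with 3521 and 3680 in IRI24h-TDN and IRI24h-TD. The mixed PEC/PTEC class followed with 1250, 1986 and 2559 CPM, and the fibroblast-like class with 894, 850 and 2755 CPM. At least 1 Cp UMI was found in 89.9% of all PEC-like cells (87.6% to 92.0%) at a median of 6558 to 9496 UMIs, and in 81.9% when each cell was thinned to 2000 UMIs. In podocyte-like cells, which should lack it, the share was 3.68% in Sham, with 1.32% and 2.41% in IRI24h-TDN and IRI24h-TD, at medians of 8244 to 9558 UMIs. Cells were clustered on expression, so the level of Cp by class describes the classes and was given no test.

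Cp in PEC-like cells differed between Sham and IRI24h-TDN by a log2 ratio of 0.94 (lower bound 0.89), just short of 2-fold. It passed 2-fold in 5 of 11 other settings and ran from 0.17 without correction between libraries to 1.43 with a larger set of variable genes. The PEC-like clusters did not hold the same level. Cluster 14 had 1039, 3078 and 1741 CPM and cluster 15 had 2445, 3703 and 5922 CPM in Sham, IRI24h-TDN and IRI24h-TD. The share of PEC-like cells with a UMI was meanwhile 93.7%, 85.9% and 83.0%, so the higher sum came with a wider spread between cells and not with more cells holding Cp. The interquartile range of PEC-like cells ran from 640 to 2380 CPM in Sham and from 935 to 6303 CPM in IRI24h-TDN.

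Outside these classes Cp was low in Sham and moved both ways. In PTEC-like cells it was 19.4 CPM in Sham, with 96.0 and 443 in IRI24h-TDN and IRI24h-TD, and a UMI was held by 81 of 1013 Sham cells and by 33.8% and 44.8% of cells in the injured libraries. The log2 ratio of IRI24h-TDN to Sham was 2.31 (2.02 to 2.60), and 1.71 without cluster 19. Beside it, the summed level of 12 PEC markers in PTEC-like cells was 379, 1443 and 2031 CPM in Sham, IRI24h-TDN and IRI24h-TD, with 1, 4 and 8 of them in at least 25% of cells. Their part in the Cp difference was not tested.

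The widest Cp ratio was in intercalated-like cells, the acid-base cells of the collecting system. It was 13.5 CPM in Sham and 210 in IRI24h-TDN, a log2 ratio of 3.97 (3.43 to 4.56), and 7.78% against 34.9% of cells held a UMI. With at most 20% mitochondrial UMIs allowed, the ratio was 1.71 and still past 2-fold. The summed level of the 12 PEC markers in this class was 847 CPM in Sham and 2218 in IRI24h-TDN, and its part in the Cp difference was not tested. Most of it lay in cluster 20, marked by the bicarbonate exchanger gene Slc26a4, with 35.7 and 306 CPM, while cluster 17, marked by Slc4a1, had 2 UMIs in Sham and 41.1 CPM in IRI24h-TDN. Cluster 20 made up 52 of 180 intercalated-like cells in Sham and 198 of 347 in IRI24h-TDN, so the class ratio holds both a difference in makeup and one within each cluster.

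In connecting tubule and principal-like cells the log2 ratio of Cp was 2.30 (1.36 to 3.41), from 5.20 to 25.6 CPM, but the share of cells with a UMI was 4.22% and 3.85%. The 90 UMIs of IRI24h-TDN came from 13 cells, so this difference lies in how much a few cells held. In podocyte-like cells Cp was lower, at 1.55 against 5.16 CPM, a log2 ratio of -1.74 (-2.14 to -1.35), with a UMI in 1.32% against 3.68% of cells, and shares this low cannot be told apart from stray RNA of other cells. In mesangial and smooth muscle-like cells it was 55.4 against 200 CPM, a log2 ratio of -1.85 (-2.16 to -1.55), with a UMI in 5.12% against 12.9% of cells. This direction turned to 1.11 when cells over 20% mitochondrial UMIs were left out.

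**Figure D3:**
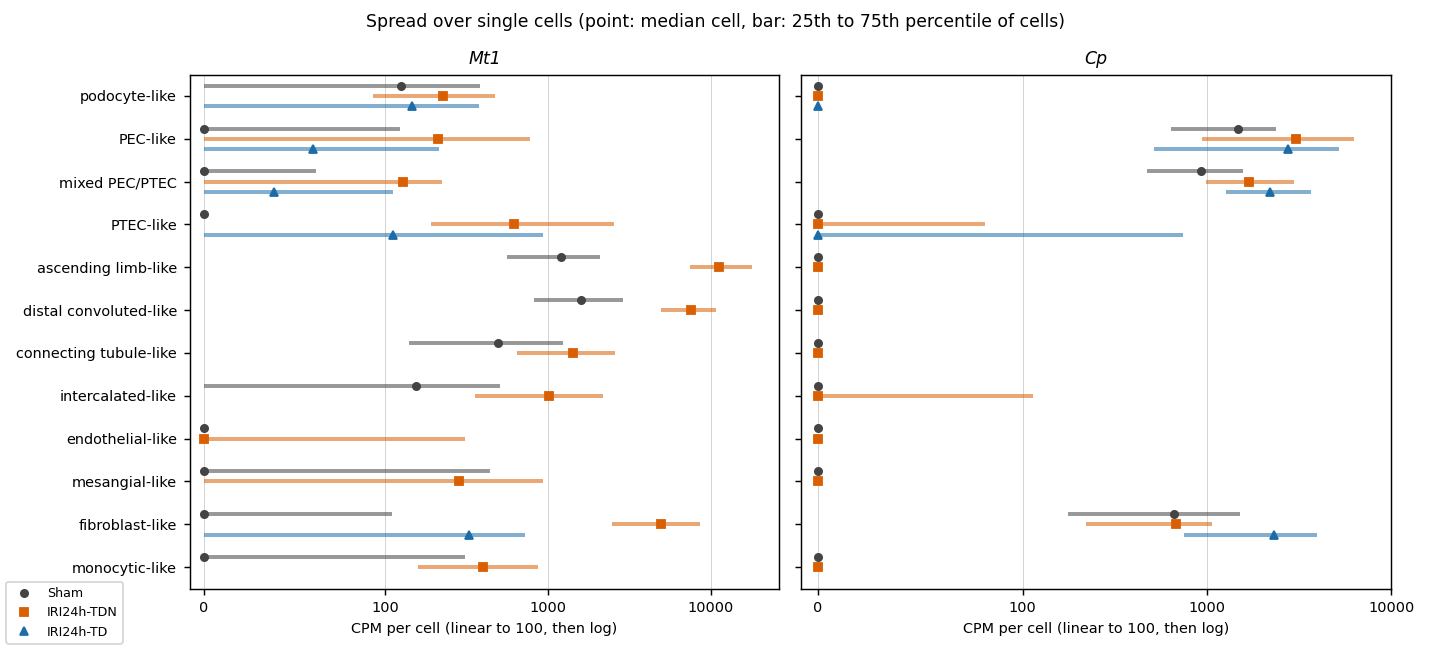
Per-cell CPM of Mt1 and of Cp by class and library; the point is the median cell, the bar the interquartile range of cells, and the axis is linear to 100 and logarithmic beyond. For Cp the median is above 0 only in the PEC-like, mixed PEC/PTEC and fibroblast-like rows, while for Mt1 the ascending limb-like median lies at 1214 CPM in Sham and 11236 in IRI24h-TDN.

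The plot of single cells separates classes in which most cells differ from those in which a few do. The ascending limb-like bars of Mt1 do not overlap between Sham (565 to 2092 CPM) and IRI24h-TDN (7528 to 17987 CPM). The endothelial-like median for Mt1 is 0 in both libraries.

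Mt1 and Mt2, the metallothioneins that bind zinc and copper, gave the widest differences. The ratio of IRI24h-TDN to Sham was above 1 in 12 of 12 classes for both genes. It was past 2-fold in 9 classes for Mt1 and in 11 for Mt2, with median log2 ratios of 2.09 and 4.15.

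By level, Mt1 was highest in the distal nephron. Ascending limb-like cells held 1501 CPM in Sham and 13833 in IRI24h-TDN, a log2 ratio of 3.20 (3.12 to 3.29). Distal convoluted tubule-like cells held 2183 and 8571 CPM, a log2 ratio of 1.97 (1.89 to 2.06). Connecting tubule and principal-like cells held 1029 and 2040 CPM, a log2 ratio of 0.99 (0.92 to 1.06). In these classes Mt1 was already present in Sham. In IRI24h-TDN fibroblast-like cells, at 6456 CPM, and PTEC-like cells, at 2067, were above connecting tubule and principal-like cells. Intercalated-like cells held 1652 CPM.

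By ratio, Mt1 differed most where Sham held little. PTEC-like cells held 49.3 CPM in Sham, with 2067 and 940 in IRI24h-TDN and IRI24h-TD, a log2 ratio of 5.39 (5.25 to 5.54) for the mixtures. The median PTEC-like cell had 0 CPM in Sham and 622 in IRI24h-TDN. Fibroblast-like cells held 260, 6456 and 734 CPM, a log2 ratio of 4.63 (4.41 to 4.86). In this class the median cell went from 0 in Sham to 4952 CPM in IRI24h-TDN, although the latter is 42 cells. Mt1 in podocyte-like cells was 332, 355 and 291 CPM, a log2 ratio of 0.10 (0.07 to 0.13), and the interval excludes a 2-fold difference for counting error.

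In PEC-like cells Mt1 was 139 CPM in Sham, with 1654 and 193 in IRI24h-TDN and IRI24h-TD. The log2 ratio of the mixtures was 3.57 (3.43 to 3.72), but 73.2% of the IRI24h-TDN UMIs were in 13 cells, and the median cell was 0 in Sham and 212 CPM in IRI24h-TDN. Cluster 15 held 101 and 2137 CPM, and cluster 14, which also held the mesangial and podocyte markers given above, held 188 and 480 CPM. The difference was thus larger in cluster 15, and a small number of cells held most of it. Over the other settings the PEC-like ratio was past 2-fold throughout, from 1.801 with a larger set of variable genes to 4.40 at a clustering resolution of 0.5. In endothelial-like cells 70.7 and 1393 CPM gave a log2 ratio of 4.30 (3.79 to 4.86), with 93.1% of the IRI24h-TDN UMIs in 10 cells and a value of 2.46 at the stricter mitochondrial limit.

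Mt2 had a higher ratio than Mt1 in each of the 12 classes. Ascending limb-like cells held 78.7 CPM in Sham and 1986 in IRI24h-TDN, a log2 ratio of 4.66 (4.30 to 5.04). PTEC-like cells held 1.32, 229 and 81.9 CPM in Sham, IRI24h-TDN and IRI24h-TD. The log2 ratio of the mixtures was 7.44 (6.59 to 8.45), on 11 Sham UMIs. Fibroblast-like cells held 14.6, 1380 and 155 CPM, a log2 ratio of 6.56 (5.67 to 7.63). Mt2 in podocyte-like cells was 14.8, 25.8 and 21.8 CPM, a log2 ratio of 0.80 (0.65 to 0.94), short of 2-fold. In monocytic-like cells the log2 ratio of 5.91 rests on 1 Sham UMI and its interval runs from 3.42 to 11.22. Sham UMIs of Mt2 were also few in fibroblast-like (10), mixed PEC/PTEC (10), endothelial-like (4) and mesangial and smooth muscle-like cells (13). How reads matching both metallothionein genes were assigned is not given in the sources used here.

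RNA released by other cells can add UMIs of abundant genes. With Umod, a gene of the ascending limb, as its measure, the Mt1 that would accompany stray ascending limb RNA in IRI24h-TDN was 67.2 of 1654 CPM in PEC-like cells (4.06%), 1.37% in PTEC-like and 6.19% in fibroblast-like cells. It was 42.1% in intercalated-like, 40.5% in endothelial-like and 46.9% in distal convoluted tubule-like cells. Mixed PEC/PTEC cells had 19.0% and mesangial and smooth muscle-like cells 15.5%, and the other classes were between 4.84% and 8.74%. Slc12a1, another ascending limb marker, was 1876 CPM in ascending limb-like and 84.0 in endothelial-like cells of IRI24h-TDN. It was 5.38 CPM in distal convoluted tubule-like and 0.63 in intercalated-like cells, where Umod was 764 and 132 CPM. The 2 markers thus part most in these 2 classes, and the shares from Umod there cannot be read as stray ascending limb RNA. Umod and Slc12a1 were 2630 and 1876 CPM in ascending limb-like, 11.4 and 1.90 in mixed PEC/PTEC and 12.8 and 3.20 in PEC-like cells. The shares in the last 2 classes therefore also depend on the marker. The part of stray RNA itself was not measured in any class.

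**Figure D4:**
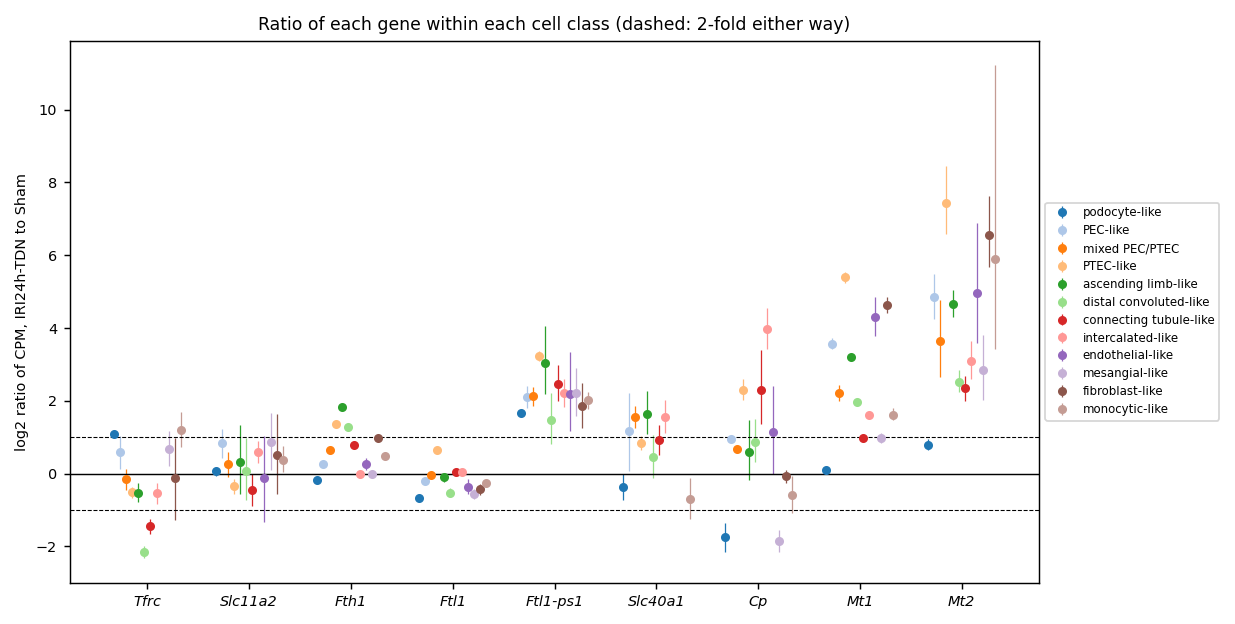
The log2 ratio of CPM of IRI24h-TDN to Sham for each gene (columns, Ftl1-ps1 added) in each of the 12 classes (colours), with 95% exact intervals and dashed lines at 2-fold either way. Mt1 and Mt2 lie above 0 in all classes with a wide spread, Ftl1-ps1 lies in a narrow band from 1.47 to 3.23, and Tfrc and Cp fall on both sides of 0.

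The vertical spread in each column sets a change shared by classes apart from one held by some. The widest spreads were those of Mt2 (0.80 to 7.44), Cp (-1.85 to 3.97), Mt1 (0.10 to 5.39) and Tfrc (-2.15 to 1.20). Measured against the median over classes, departures past 2-fold in IRI24h-TDN were found in 8 classes each for Mt1 and Mt2, 6 for Cp, 4 for Tfrc, 2 for Slc40a1 and 1 for Fth1. Ftl1 and Slc11a2 had none. Podocyte-like cells lay below the median for Mt1 (-1.99) and Mt2 (-3.35), and PTEC-like cells above it (3.30 for both).

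The tdT+ library was set against the injured mixture in the 5 classes shared by both, to see whether cells with the reporter differed from all cells of the class. Of 39 pairs, 12 were past 2-fold in IRI24h-TD against IRI24h-TDN, 4 higher and 8 lower, where the background over all genes was 7.99% of pairs (4.01% higher and 3.99% lower). Without the correction between libraries 1 of 32 pairs was past 2-fold, that of Mt2 in PTEC-like cells. The fibroblast-like class then had 45 cells, too few to be read, so its calls were not checked there. In the classes still read, the other calls were not kept. Fibroblast-like cells held 6 of the 12, and in that class 26.9% of all genes were past 2-fold. A class can hold different cells in the 2 libraries, and this cannot be told apart from a difference within 1 kind of cell.

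Metallothioneins were lower in IRI24h-TD past 2-fold in PEC-like, PTEC-like and fibroblast-like cells. In this order Mt1 had log2 ratios of -3.10 (-3.28 to -2.92), -1.14 (-1.25 to -1.03) and -3.14 (-3.34 to -2.94), and Mt2 of -4.86 (-5.88 to -4.00), -1.49 (-1.88 to -1.12) and -3.15 (-3.62 to -2.72). In the mixed PEC/PTEC class the ratios of -0.77 for Mt1 and -0.84 for Mt2 did not reach 2-fold, but were past it in 6 of 10 and 6 of 9 other settings, down to -2.48 and -2.42. In PEC-like cells 73.2% of the IRI24h-TDN UMIs of Mt1 were in 13 cells. Podocyte markers moved with the comparison, since their summed level in IRI24h-TDN and IRI24h-TD was 2084 and 8261 CPM in PEC-like cells, 453 and 1484 CPM in PTEC-like cells, and 2185 and 10760 CPM in fibroblast-like cells. Their part in these differences was not tested. Without the cells of highest doublet score the PEC-like ratio of Mt1 was -1.32. Without correction between libraries the PEC-like ratio of Mt1 was -0.83 and neither gene was past 2-fold there. The PTEC-like call of Mt1 was kept in 7 of 11 other settings. In podocyte-like cells, the class with the most cells, Mt1 (-0.29) and Mt2 (-0.24) were close to 1-fold.

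Cp was higher in IRI24h-TD in PTEC-like cells by 2.21 (1.97 to 2.44) and in fibroblast-like cells by 1.70 (1.53 to 1.86) on the log2 scale. The ratio of Cp in PEC-like cells, 0.06 (0.01 to 0.12), was above 0 in 6 of 11 other settings and ran from -0.47 to 0.71, so its sign is not stable. The PTEC-like value was -0.02 without correction between libraries, and the cause was not tested. In fibroblast-like cells Fth1 was lower, by a log2 ratio of -1.51 (-1.63 to -1.38), and Tfrc higher, by 1.84 (0.82 to 2.93) on 13 and 25 UMIs. Slc11a2 in the same class was 1.06 (0.03 to 2.09), and kept its call in 4 of 8 settings. The call of Slc40a1 in PEC-like cells, -1.92 (-3.73 to -0.39) on 15 and 5 UMIs, was kept in 2 of 6 settings.

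Set against Sham, with which the earlier values share a library, IRI24h-TD had 14 of 39 pairs higher and 0 lower, where 16.5% of all pairs were past 2-fold, 7.61% higher and 8.92% lower. In PTEC-like cells Cp was higher by 4.52 (4.24 to 4.79), Mt1 by 4.25 (4.08 to 4.43) and Mt2 by 5.96 (5.03 to 7.03) on the log2 scale. In this class 28.4% of all genes were past 2-fold, and IRI24h-TD had 87 cells at a median of 2431 UMIs. No ratio of a class between IRI24h-TD and Sham was recomputed in other settings. In PEC-like cells Cp was higher by 1.01 (0.95 to 1.06), at the edge of 2-fold, while Mt1 at 0.48 (0.27 to 0.68) and Mt2 at -0.02 (-1.19 to 1.06) did not pass. The wide interval for Mt2 does not show that it was the same.

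Other genes of metal handling came from 6 lists, also chosen with earlier results of these data known, so their shares are descriptive only. Of 72 pairs of the iron entry list (transferrin, its partners, reductases and the non-transferrin importer), 22 were higher past 2-fold and 10 lower in IRI24h-TDN, with a median log2 ratio of 0.40, where the median of all 122280 pairs was -0.003. The iron export list without Cp had 2 higher and 2 lower of 25, and the iron storage and sensing list 2 and 2 of 94. The haem and mitochondrial iron list had 20 higher and 7 lower of 215, the copper list 13 and 7 of 111, and the zinc list 23 and 8 of 214. Over all genes 8.39% of pairs were higher and 9.18% lower. The haem, copper and zinc lists, at 9.30%, 11.7% and 10.7% higher, were near that background, and at 3.26%, 6.31% and 3.74% lower were under it. No gene of these lists was shifted alike in every class, which at a background of 1.26% is no result about these lists.

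**Figure D5:**
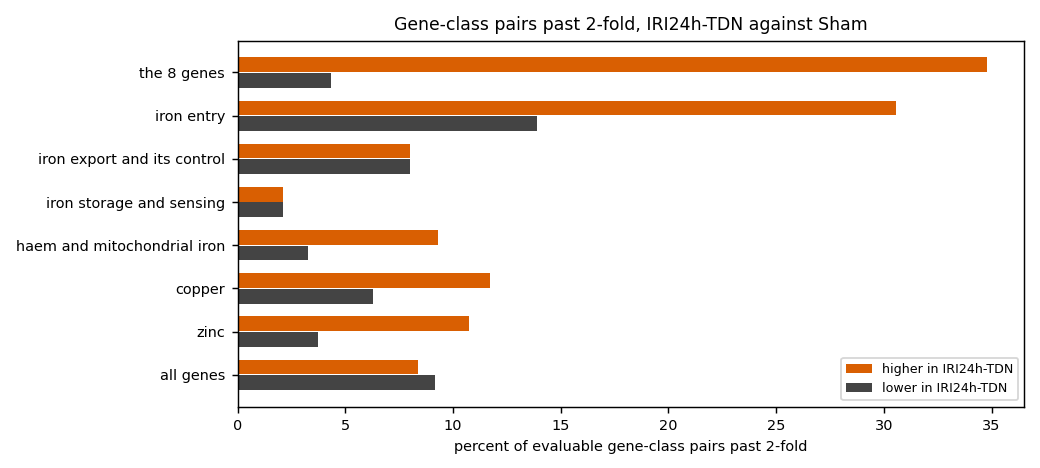
Percent of evaluable gene-class pairs past 2-fold higher (orange) and lower (grey) in IRI24h-TDN against Sham, for the 8 genes, the 6 other lists and all genes. The bar of the 8 genes reaches 34.8% higher and that of iron entry 30.6%, against 8.39% for all genes, while iron storage and sensing reaches 2.13%.

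The bars of the 8 genes are dominated by Mt1 and Mt2, which give 20 of the 32 higher pairs. Among the iron entry genes, Trf (transferrin) was 104 CPM in IRI24h-TDN and 4.39 in Sham in fibroblast-like cells, a log2 ratio of 4.56 (2.94 to 6.88). Steap3, a ferrireductase of endosomes, was 131 against 13.2 CPM there (3.32 on the log2 scale), and Slc39a14, an importer of zinc and of iron not bound to transferrin, was 113 against 14.6 CPM (2.95). All of these are in the class of 42 IRI24h-TDN cells, where 28.7% of all genes were past 2-fold. The median cell of that class held 12041 UMIs in IRI24h-TDN and 3671 in Sham.

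In PTEC-like cells 30.9% of all genes were past 2-fold between IRI24h-TDN and Sham. The iron hormone regulator Bmp6 was 78.4 CPM in PTEC-like cells of IRI24h-TDN and 17.0 in Sham (log2 2.21). Blvrb, which reduces biliverdin, was 69.1 against 6.58 CPM (3.39). Steap1, a metalloreductase family member, was 217 CPM in IRI24h-TDN, with a log2 ratio of 4.24. The copper chaperone gene Atox1 and the copper transporter gene Slc31a2 had log2 ratios of 1.42 each, whereas Slc39a8, an importer of zinc and manganese, was 65.9 CPM in Sham and lower in IRI24h-TDN, with a log2 ratio of -2.72.

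In fibroblast-like cells Hmox1, which breaks down haem, was 131 against 20.5 CPM (2.68), and Hp (haptoglobin) was 217 against 2.93 CPM, with 2 Sham UMIs and an interval of the log2 ratio of 4.32 to 9.27. The other genes that the same rule named were closer to 1-fold or rest on few Sham UMIs. Fbxl5, which targets iron regulatory protein for degradation, had a log2 ratio of 1.09 in distal convoluted tubule-like cells, Ncoa4, the ferritin autophagy receptor, -0.88 and Pcbp1, an iron chaperone, 0.77 in PTEC-like cells, and Neo1 -0.85 in fibroblast-like cells. Heph, a membrane ferroxidase, was 17.9 against 5.29 CPM (1.76) and Slc39a6, a zinc importer, had a log2 ratio of 2.58, both in distal convoluted tubule-like cells with 3 and 2 Sham UMIs.

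By the rule on the top class against the median class, both pooled over libraries, the following genes were named. The pooled values depend on how many cells each library gave to a class. Cd163, the haptoglobin-haemoglobin receptor, was 42.1 CPM in monocytic-like cells and 0.50 in the median class, Trf was 206 and 1.44 CPM in the same order, and Lrp1 was 464 CPM in fibroblast-like cells and 2.36 in the median class. Slc30a2, a zinc exporter into vesicles, was 59.9 CPM in PTEC-like cells and 7.33 in the median class, and Slc39a8 was 62.6 CPM in ascending limb-like cells and 10.3 in the median class, with 65.9 CPM in PTEC-like cells of Sham alone. Steap1 (124 and 6.81 CPM) and Bmp6 (79.6 CPM) had their top pooled value in the mixed PEC/PTEC class, although Steap1 was 217 and Bmp6 78.4 CPM in PTEC-like cells of IRI24h-TDN alone. For Hp the top class was fibroblast-like (80.0 and 1.03 CPM) and for Slc31a2 podocyte-like (189 and 40.1 CPM). Aco1, the cytosolic aconitase that becomes an iron regulatory protein, was 183 CPM in PTEC-like cells and 56.3 in the median class, Neo1 was 102 and 42.6 CPM in mesangial and smooth muscle-like cells, and Herc2 was 120 and 56.6 CPM in endothelial-like cells. These last genes stood out from the median class by less than the others and are not restricted to a class.

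Across 29 class-by-library groups, which share libraries and depth, the genes with the most similar pattern were given for each member by Pearson's r of log2(CPM + 1) among 13317 genes. For Mt1 it was Mt2 (0.93), followed by Hesx1 (0.84) and Sphk1 (0.81), and for Mt2 it was Mt1, then Sphk1 (0.80) and Hesx1 (0.80). Cp resembled Gxylt2 (0.88), C3 (0.87) and Adgrg2 (0.86). Slc40a1 resembled Rbm47 (0.91), Gsr (0.89) and Mia2 (0.88), and Tfrc resembled Prdx5 (0.85), Gcat (0.83) and Gm16010 (0.83). Fth1 resembled Glrx (0.82), Lgmn (0.80) and Msrb1 (0.80), Ftl1 resembled Acp5 (0.87), Gatm (0.86) and Cks2 (0.85), and Slc11a2 resembled Lamp1 (0.87), Dmxl2 (0.81) and Dab2 (0.79). Mt1 and Mt2 were the only pair of members among these, and the values describe the groups without a test.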

How the data were processed

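The authors deposited 1 table of UMI counts per library, genes by barcodes, which are counts without normalization. The submitters' processing notes name CASAVA 1.8, UMI-tools, Seurat and mm10, and reads were captured on the BD Rhapsody platform. Strand use and multi-mapping rules are not given in the sources used here. Coordinates and UTR sequences came from GENCODE M21 (GRCm38, the same assembly as mm10), and promoters from RefSeq (GRCm38.p6), where 6 of the 8 genes had an entry.

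Barcodes with at least 200 genes and at most 50% mt- UMIs were kept (26760 of 30008, from totals of 69980443, 92355554 and 93470709 UMIs). For clustering, each cell's total was set to 10000 and log values were taken, 2000 variable genes were reduced to 30 principal components, libraries were aligned by a Harmony-type correction, and 32 Leiden clusters (resolution 1, 15 neighbours) were named from 15 marker lists. The scoring rule that names a cluster was set after the clusters had been seen. Doublets were not removed, and leaving out the top 6% of doublet scores in each library was an alternative. The 8 genes and the pathway lists were chosen with earlier results of these data known.

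Within a class, UMIs were summed over cells and divided by the class total, so no per-cell value enters a test. With 1 library per condition no p-value was computed. A pair was evaluable with at least 20 UMIs over both libraries and at least 30 cells in each, and a gene was called alike only in at least 6 classes. Pathway genes were named as the 3 with the largest ratio in each list and the 2 with the largest ratio of top class to median class. The calling was tested on simulated data for IRI24h-TDN against Sham, where 84% of 200 changed genes among 10393 were called alike and 0.850% of unchanged pairs were called. The simulated counts held counting error alone, without spread between cells or a difference in class makeup. The 0.850% is therefore no rate of false calls for these data. Alternatives changed the cell filters, clustering, correction, scaling, depth and count minimum. Software was Python 3.11.15 (numpy 2.4.6, scipy 1.17.1, pandas 2.3.3, scikit-learn 1.9.0, igraph 0.11.9, leidenalg 0.10.2) and R 4.3.3 with edgeR 4.0.16, used for TMM factors alone.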

Additional observations from a re-analysis of the deposited data

Results flagged for a closer look

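Cp and Tfrc moved in opposite directions in different classes between Sham and IRI24h-TDN, and these differences between classes were not tested because each class has 1 library per condition. Cp had a log2 ratio of 3.97 in intercalated-like cells and -1.85 in mesangial and smooth muscle-like cells, of which the latter turned to 1.11 when cells with over 20% mitochondrial UMIs were left out. Tfrc had a log2 ratio of 1.20 in monocytic-like cells and -2.15 in distal convoluted tubule-like cells, where Sham held 46 cells and 410 Tfrc UMIs.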

How the results depend on the processing

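No paired analysis was possible because each condition has 1 library, and for the same reason no replicate could be left out. The number of gene-class pairs past 2-fold between IRI24h-TDN and Sham was 36 and ran from 28 to 41 over 18 alternatives. The number of the 8 genes shifted alike was 0 and became 1 (Mt2) when cells were thinned to 2000 UMIs. Between IRI24h-TD and IRI24h-TDN the 12 pairs became 1 without the Harmony correction, where the fibroblast-like class was too small to be read. They became 6 without the fibroblast-like class, an alternative chosen after seeing the data, and ran from 8 to 14 otherwise. The share of PEC-like cells with a Cp UMI was 89.9% and moved to 92.7% at up to 20% mt- UMIs, 95.01% without the top doublet scores, 94.4% at resolution 0.5 and 81.9% after thinning. Median log2 ratios over classes kept their sign in all 121 recomputed values except those of Tfrc, which ran from -0.49 to 0.17, the latter with the mean of per-cell CPM, and 98 moved by less than the counting spread. Alternatives added after seeing the data also summed Ftl1 with its copy, left out clusters held by 1 library or the cell with the most UMIs, and used clusters in place of classes. TMM factors shifted class ratios by -0.21 (PTEC-like) to 0.15 (fibroblast-like). Pairs under 20 UMIs, such as Slc40a1 in endothelial-like and mesangial cells, are limited by depth.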

Other observations

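A shallow cluster left unnamed because too few markers were detected (median 1494 UMIs; 46 Sham, 80 IRI24h-TDN and 73 IRI24h-TD cells) held 300 CPM of Mt1 in Sham, with 10098 and 437 in IRI24h-TDN and IRI24h-TD. Mt2 in the same cells was 15.8, 1437 and 52.5 CPM, and Fth1 was 3343, 5230 and 1312 CPM. Cp went the other way in the mixture, at 457, 55.0 and 542 CPM. The summed UMIs of so shallow a cluster can include stray RNA, whose part was not tested.

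Cluster 26, set apart by cell cycle genes and holding 36, 66 and 46 cells, had Cp at 430 CPM in Sham, with 766 and 1395 in IRI24h-TDN and IRI24h-TD. At least 1 Cp UMI was found in 27.8%, 51.5% and 93.5% of its cells. Fth1 was 1802, 5060 and 3034 CPM in the same order. Cells of several classes can cycle, so these values describe a mixture whose makeup may differ between libraries.

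Ascending limb-like cells were too few for comparison in IRI24h-TD, at 14 cells against 405 in IRI24h-TDN. Their Mt1 level was 13622 CPM (13042 to 14221), beside 13833 in IRI24h-TDN and 1501 in Sham. Fth1 in the same cells was 10295 CPM (9792 to 10818), beside 8449 and 2386. A sort for tdT+ cells should remove most of this class, and whether these cells carried the reporter was not measured.

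Genes shifted alike in every class between IRI24h-TDN and Sham numbered 45 higher and 86 lower of 10361. Of 94 ribosomal protein genes, 32 were among the lower and 2 among the higher. None of the 8 metal-handling genes was among them, which at a background of 1.26% is no result about these genes, and Mt2 was among them when cells were thinned to 2000 UMIs.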
